A study of Mus musculus with 4 samples.

Results

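Of 1197 HA-hWDR5 peaks called at T12h, 458 overlapped no T48h peak and had their summit more than 1 kb from both ends of every RefSeq gene, which is 38.3% of the T12h list. They are called distal T12h-only peaks here. The term refers to the ends of gene spans only, so some of these peaks lie close to a transcription start inside a gene. They were chosen by the absence of an overlap and by distance, so neither is a finding. The series holds 2 anti-HA ChIP-seq libraries and their 2 inputs from day 6 mouse embryoid bodies. All cells were Rx:GFP knock-in embryonic stem cells without mouse Wdr5 (Wdr5 KO) that carried doxycycline-inducible, HA-tagged human WDR5, and they were differentiated by SFEBq in GMEM with 5% KSR, with 2% matrigel from day 1. The T12h group received doxycycline at T12h and the T48h group at T48h, and the labels do not give the event that these hours are counted from. The protein followed is therefore a tagged human transgene product, no library from cells without it is used here, and the labels do not say whether the line is 1 clone. Fixation used disuccinimidyl glutarate, a long protein crosslinker, followed by paraformaldehyde. After filtering, 55539917 ChIP tags remained at T12h and 67116740 at T48h. With 1 library per time there is no replicate error, so differences between the times describe these libraries, and binomial intervals cover counting error only. Expression was not measured, so the embryoid body label could not be checked against marker genes.

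WDR5 is a scaffold protein with a ring of WD repeats. It is a core subunit of the MLL and SET1 histone methyltransferase complexes, and it also binds MYC, whose partner sequence is the E-box CACGTG. It is best known at promoters, so peaks away from the ends of genes raise the question of what lies under them: starts of shorter transcripts inside a gene, sites between genes, or repeated sequence.

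Some of these peaks lay at transcription starts inside longer gene models. Below are those of the 250 bases before such a start that fall within the peak, for the 6 highest-scoring distal T12h-only peaks outside dense windows (defined below) in which the stretch was at least 100 bases long. They are given on the strand of the gene, from the RefSeq promoter table of GRCm38.p6 (mm10), and capitals mark matches to any of 14 motifs searched on both strands.
Rab3il1, chr19:10017944-10018193, plus strand: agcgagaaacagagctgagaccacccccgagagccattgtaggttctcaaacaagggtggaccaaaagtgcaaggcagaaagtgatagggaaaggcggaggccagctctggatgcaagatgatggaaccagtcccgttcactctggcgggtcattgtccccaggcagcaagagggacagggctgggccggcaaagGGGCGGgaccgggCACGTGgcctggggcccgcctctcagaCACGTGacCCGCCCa
Dis3l2, chr1:86703658-86703803, plus strand: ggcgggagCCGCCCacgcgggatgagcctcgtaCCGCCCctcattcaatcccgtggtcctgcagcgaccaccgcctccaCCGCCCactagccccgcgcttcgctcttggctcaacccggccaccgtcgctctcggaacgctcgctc
Ndrg4, chr8:95702806-95702959, plus strand: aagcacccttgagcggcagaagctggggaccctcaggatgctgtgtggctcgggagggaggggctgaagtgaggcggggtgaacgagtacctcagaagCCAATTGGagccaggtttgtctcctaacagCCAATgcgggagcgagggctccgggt
Ece1, chr4:137913343-137913557, plus strand: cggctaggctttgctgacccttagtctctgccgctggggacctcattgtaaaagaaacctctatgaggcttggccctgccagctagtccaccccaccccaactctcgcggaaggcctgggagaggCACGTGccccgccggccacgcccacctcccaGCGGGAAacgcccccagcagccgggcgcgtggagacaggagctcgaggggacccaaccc
Cnih3, chr1:181352378-181352627, plus strand: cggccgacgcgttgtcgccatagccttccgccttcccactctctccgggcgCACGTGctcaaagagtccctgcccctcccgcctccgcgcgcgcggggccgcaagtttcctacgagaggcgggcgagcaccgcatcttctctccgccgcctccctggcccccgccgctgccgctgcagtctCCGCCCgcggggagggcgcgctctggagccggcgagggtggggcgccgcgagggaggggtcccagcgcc
Apoe, chr7:19698622-19698755, minus strand: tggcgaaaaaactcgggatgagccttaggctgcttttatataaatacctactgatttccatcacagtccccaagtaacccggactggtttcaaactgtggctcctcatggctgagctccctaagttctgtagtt
The Rab3il1 stretch held 2 matches to CACGTG and 2 to the GC box GGGCGG, and its bases were 62% G or C. Cnih3 held 1 match to each of these, with 36 CG pairs in 250 bases. Ece1 held 1 CACGTG and 1 TTCCCGC, an E2F-type sequence. Dis3l2 held 3 GC boxes, and Ndrg4 held 3 matches to CCAAT. In CCAATTGG the capitals cover 1 match on each strand, which overlap. The Apoe stretch, the lowest in G and C at 46.3%, held none of the motifs.

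Distal T12h-only peaks lay at internal starts in 51 of 443 cases, or 11.5% (exact binomial 95% interval 8.69 to 14.9). An internal start is a start in the RefSeq table that lies within 1 kb of a distal summit, inside the span of its own gene. The 15 peaks on chromosome 18 are left out of this share because starts there were not used. The same share was 1.14% (0.311 to 2.89) among the distal T48h-only peaks, 4 of 351, and 35.0% (20.6 to 51.7) among distal T12h peaks that overlapped a T48h peak, 14 of 40. Within genes alone it was 51 of 245 (20.8%, 15.9 to 26.4) for the T12h-only and 4 of 133 (3.01%, 0.825 to 7.52) for the T48h-only peaks. The shares differed between the times in peaks of low score too. For scores of 60 to 80, 12 of 122 T12h-only peaks and 0 of 111 T48h-only peaks lay at an internal start. For scores of 50 to 60 the counts were 13 of 205 and 3 of 204. Peaks of like score were not alike in the deposited false discovery rate. It was at most 5% for 239 of all 458 distal T12h-only peaks and for 14 of all 363 distal T48h-only peaks. The times were compared as shares of peaks in 2 libraries, and the difference was not tested. The share moved with the distance that counts as distal, to 22.1% at 500 bp and 4.64% at 5 kb from gene ends.

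The 51 peaks belonged to 51 genes, of which 48 were protein-coding. For 33 of them the internal start was the only start the table held for that gene, so the gene span reached beyond its tabled start. The summit lay downstream of the start in 37 cases and upstream in 14, within 250 bp in 26 and within 100 bp in 12. The strongest was in Csnk1e, which encodes a casein kinase of the circadian clock and of WNT signalling. Its peak (chr15:79441409-79442044) had 145 tags, a fold of 23.47 over the local background and a score of 905.5, and its summit was 103 bp downstream of the start. The score rises with the negative log10 of the peak's p-value, and a score of 50 is a p-value of 1e-05. Rab3il1, a Rab exchange factor gene, followed with 107 tags, a fold of 12.36 and a summit 37 bp upstream of the start. The synaptic adhesion gene Cntnap2 (96 tags, fold 10.71) and the exoribonuclease gene Dis3l2 (67 tags, fold 9.67) had summits 150 and 396 bp downstream. Rab3il1 scored 456.7, Cntnap2 323.23 and Dis3l2 199.21.

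Ndrg4 had 57 tags and a fold of 9.06, with its summit 248 bp upstream of the start. Ece1, which encodes an endothelin-converting enzyme, had 40 tags and a fold of 9.68 at 34 bp upstream. Cnih3, an auxiliary subunit gene of AMPA receptors, had 48 tags and a fold of 8.23 at 72 bp downstream, and Apoe, a lipid carrier gene, had 32 tags and a fold of 8.03 at 63 bp upstream. The replication clamp loader gene Rfc1 had 39 tags and a fold of 8.57, with its summit 54 bp downstream of the start. Rpl19, a large-subunit ribosomal protein gene, had 26 tags and a fold of 6.34 at 96 bp downstream, and Psmc2, a proteasome ATPase gene, had 19 tags and a fold of 7.31 at 152 bp downstream. The remaining ones include Srpk2 (a kinase of splicing factors, 38 tags, fold 7.79) and Lmbrd1 (14 tags, fold 7.65), which had the lowest score of the 51, at 51.99.

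**Figure D1:**
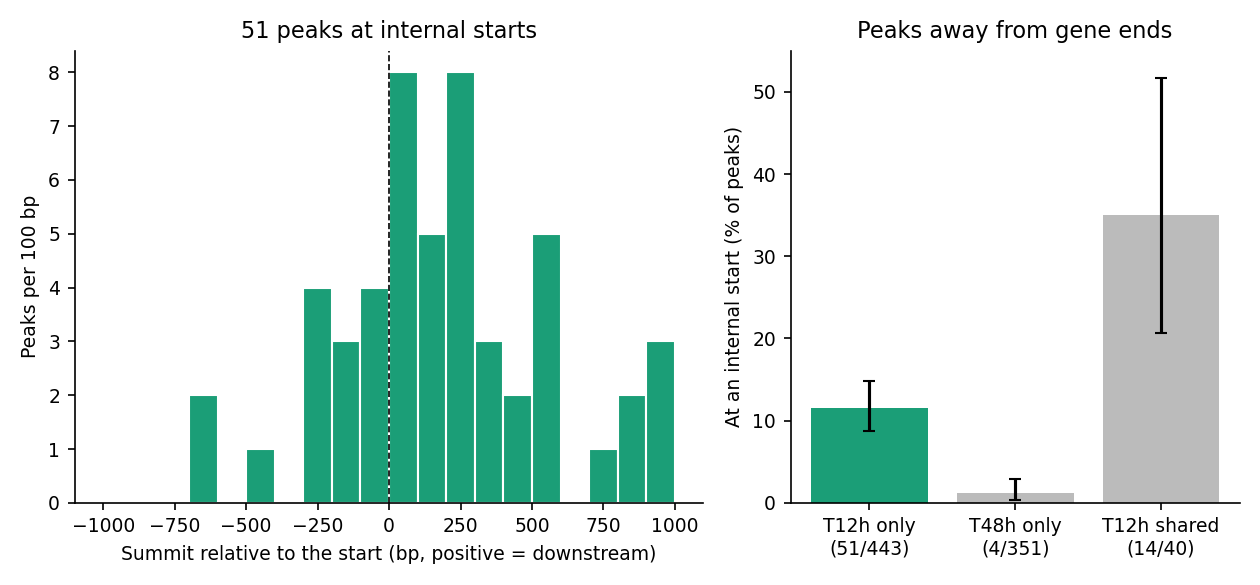
Left, number of distal T12h-only peaks per 100 bp by the distance in bp of the summit from the nearest internal start, positive downstream. Right, percent of distal peaks at an internal start in the T12h-only, T48h-only and shared T12h sets with exact binomial 95% intervals: 51 of 443, 4 of 351 and 14 of 40.

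The promoter windows themselves (250 bases before to 50 after the start) were rich in CG pairs. Of the 51 peaks, 27 overlapped the window of their start. The median G and C content of these 27 windows was 63.7%, against 52.7% over all 32851 windows in the table. The ratio of observed to expected CG pairs had a median of 0.882 against 0.384. GGGCGG was in 18 of the 27 windows (66.7%) and in 35.7% of all windows. Among windows with a CG ratio of at least 0.6, which held 23 of the 27, it was in 73.9% and 72.3%. CACGTG was in 8 of the 27 (29.6%) against 7.15% of all windows, and in 7 of the 23 CG-rich ones (30.4%) against 11.3% of all CG-rich windows. The 8 genes were Rab3il1, Ece1, Cnih3, Rfc1, Gm10406, Gtf2ird2, Rpl19 and Foxred2, and Gm10406 lies in a dense window. The table also held 5352 windows whose start lay more than 1 kb inside its own gene. Of these, 32.0% held GGGCGG and 6.09% CACGTG, and their median CG ratio was 0.330.

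Of the other motifs, TTCCCGC was in 5 of the 27 windows (18.5%, against 4.60% of all windows), and among CG-rich windows in 21.7% against 10.0%. CCAAT was in 9 (33.3%, 37.4%). CCGGAAG and CATTCCT were in 3 each (11.1%, against 8.86% and 5.36%). The AP-1 motif TGANTCA was in 1 (3.70%, 7.81%), as were the SOX motif AACAAAG (5.85% of all windows) and the ETS motif GGAAGTG (11.0%). ATGCAAAT, AAGATGGC, the ZNF143 motif, the CTCF core motif and TAATTA were in 0, against 1.74%, 2.75%, 1.01%, 0.798% and 5.29% of all windows. CCGGAAG and GGAAGTG share the letters GGAAG and can overlap. A match describes the letters in the window only.

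The 20 highest-scoring distal T12h-only peaks had scores of 249.34 to 905.5. Of these, 11 lay inside genes, 4 of them at an internal start, and 9 lay between genes. In Grik2, a kainate-type glutamate receptor gene, a peak (chr10:49782908-49783672) held 134 tags with a fold of 12.93. It lay 6960 bp from the nearer end of the gene span and 5553 bp downstream of the nearest start, a start of Grik2 itself. Upstream of Ptma, which encodes the acidic nuclear protein prothymosin alpha, a peak at 1267 bp (chr1:86524820-86525583) had 120 tags and a fold of 17.55. Next to Tbr1, a T-box factor gene of cortical neurons, a peak 1789 bp beyond the gene (chr2:61815533-61816336) had 86 tags and a fold of 9.63, and its summit was 11450 bp downstream of the Tbr1 start. None of these had a T48h peak within 10 kb.

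Other leading peaks were 2810 bp upstream of the Ras activator gene Sos1 (81 tags, fold 13.55) and 27276 bp upstream of Hlf, a bZIP factor gene (62 tags, fold 12.76). Inside Popdc2, a gene of striated muscle, a peak had 62 tags and a fold of 12.2. Rbm12b1, an RNA-binding protein gene, held one with 101 tags and a fold of 12.32. Among long non-coding models, Gm33690 held a peak of 89 tags (fold 16) and Gm36355 one of 72 tags (17.85). The peak nearest to D130051D11Rik, 20532 bp away, had a fold of 17.86 with 83 tags, and the one nearest to Gm15918 had 12.99 with 97 tags. Beyond the first 20 by score, the highest folds were 13.8 near Tmem242, 13.11 near 4930428O21Rik, 12.5 in the collagen gene Col6a6, 11.48 near Gm31072 and 11.41 in Ksr1, a scaffold gene of the Ras pathway.

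Most distal T12h-only peaks were weak. Their median fold was 6.79, with quartiles of 5.42 and 8.19 and a range of 2.36 to 23.47. They held a median of 28 tags (12 to 1470) over a median width of 291.5 bp. The median score was 61.51, and 214 of them (46.7%) scored under 60, where the calling limit is 50. Of the 458, 32 (6.99%) had folds of 10 or higher, against 20.1% of all T12h peaks. The deposited false discovery rate was above 5% for 219. T12h-only peaks at gene ends had a median fold of 7.07 and a median score of 78.33, and distal T12h peaks shared with T48h had 10.17 and 190.9. Distal T48h-only peaks had 7.51 and 58, and 14 of these 363 had a deposited false discovery rate of at most 5%. Peak calling chose the peaks on these values, so no test was made.

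**Figure D2:**
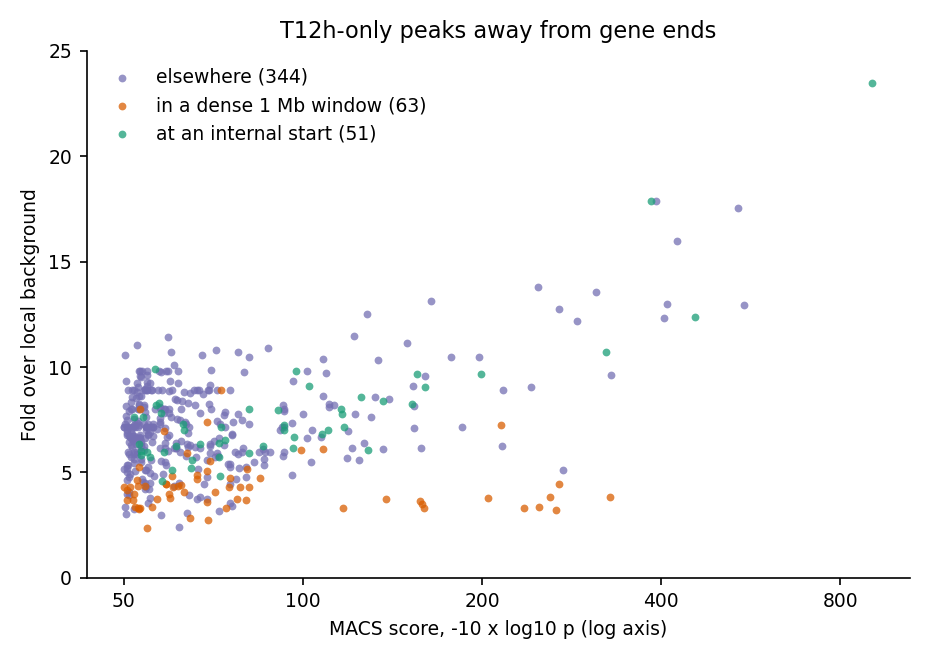
Fold over the local background (linear axis) against MACS score (log axis) for the 458 distal T12h-only peaks, 1 point each. Orange points are peaks in dense windows that are not at internal starts, and green points are peaks at internal starts, 7 of them in dense windows. All 70 peaks in dense windows, of either colour, had a median fold of 4.3 and reached a score of 328.21 at a fold of 3.85. Among peaks at internal starts Csnk1e had the highest fold, 23.47.

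Distal peaks of T12h lacked a T48h counterpart in 91.6% of cases, 458 of 500, and peaks at gene ends in 73.7%, 514 of 697, against 81.2% of the whole T12h list. Of the T48h peaks, 65.6% lacked a T12h counterpart. The places were close to each other in peaks of low score. For scores of 50 to 60, 214 of 218 distal peaks (98.2%) and 134 of 138 gene-end peaks (97.1%) were T12h-only. For scores of 120 to 240 the shares were 37 of 48 (77.1%) and 92 of 117 (78.6%). At scores of 240 or more they were 22 of 42 (52.4%, exact interval 36.4 to 68.0) and 26 of 160 (16.3%, 10.9 to 22.9). Overlap and place are both part of the rule, so these shares are a description.

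**Figure D3:**
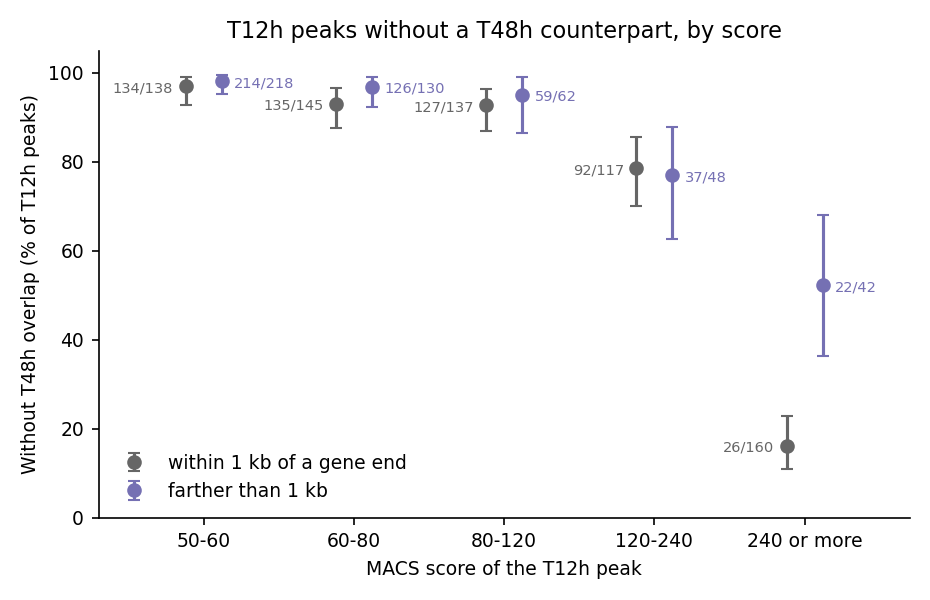
Percent of T12h peaks without an overlapping T48h peak in 5 score ranges, for peaks within 1 kb of a gene end (grey) and farther away (purple), with exact binomial 95% intervals. The points lie close together below a score of 240, and at 240 or more they stand at 16.3% and 52.4%.

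Of the 458 distal T12h-only peaks, 257 were inside a gene (56.1%, 51.4 to 60.7). The share was 57.0% for all 500 distal T12h peaks, 66.7% for the 42 of them shared with T48h and 69.1% for all T12h peaks. Of the distal T48h-only peaks 140 of 363 were inside a gene (38.6%, 33.5 to 43.8), a difference that was not tested. The deposited false discovery rate was at most 5% for 7 of these 140 and for 148 of the 257. Of the 257 T12h-only peaks, protein-coding genes held 209, lncRNA genes alone 37, and 11 lay in pseudogenes and other models. The protein-coding hosts had a median length of 70.0 kb. Exons and introns are not separated because the annotation used gives gene spans only. The median distance to the nearest gene end was 5.11 kb inside genes and 14.3 kb between them, and 386 kb was the longest, in Ctnna3. Within 2 kb of a gene end lay 81 peaks (17.7%), against 24 (6.61%) of the distal T48h-only peaks. In 15 cases, over 14 of the 277 host genes, the host gene had a T12h peak at its end as well. Of these cases 8 were outside dense windows. A T48h peak lay at the end of the host gene in 5 cases, over 3 genes. The share of all genes with a T12h peak at an end was not computed. By the assignment used for gene lists below, 1210 of the 49993 genes had any T12h peak. That count takes in peaks inside or nearest to a gene, so it is not a like share for the 14. In Gm10406 and Gm3667 the summits of the paired T12h peaks were only 0.639 and 0.532 kb apart, so they need not be separate sites. Mga, a subunit gene of the repressive complex PRC1.6, was 1 of the 14: its internal peak of fold 7.03 lay 24.3 kb from a gene-end peak of fold 11.55. Others were the calcium channel gene Cacnb2 (7.29 and 7.55, 303 kb apart) and the chromatin remodeller gene Bicra (7.14 and 8.69, 48.4 kb apart).

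A separate group lay in windows of 1 Mb with 6 or more T12h peaks, called dense windows. There were 11, and 10 of them held 70 distal T12h-only peaks (15.3%, 12.1 to 18.9), against 10.9% of all T12h peaks. The share was 10.3% for T12h-only peaks at gene ends, 53 of 514. Both the windows and the share of all T12h peaks count the 70 themselves, so the shares are a description. The 70 lay on chromosomes 14 (30 peaks), 6 (28) and 8 (12). Their median fold was 4.3, against 7.14 for the 388 outside, while their tag density was higher, at a median of 13.7 against 9.27 tags per 100 bp. Whether tags of several near-identical copies were placed together is not given in the sources used here, so values in these windows are uncertain for any single copy. A window is dense by its peak count alone, so not every peak in it need lie in repeated copies. The 70 include the peaks in Cntnap2 (fold 10.71) and Ezh2 (fold 8.93).

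**Figure D4:**
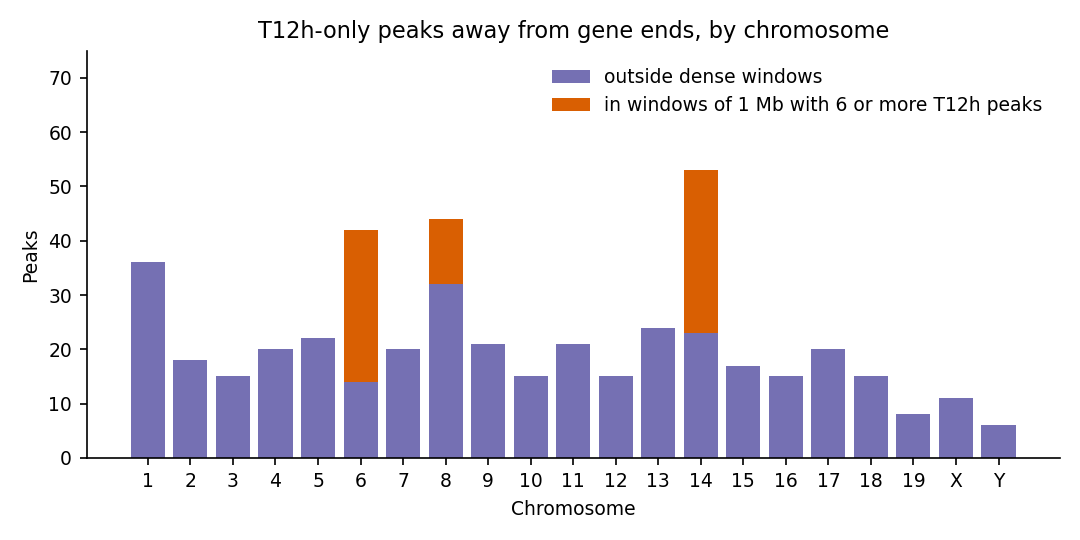
Number of distal T12h-only peaks on each chromosome, split into those inside dense 1 Mb windows (orange) and outside (purple). Chromosomes 14, 8 and 6 lead with 53, 44 and 42, and all dense-window peaks lie on these 3. These counts are 11.6%, 9.61% and 9.17% of the distal T12h-only peaks, beside 8.44%, 10.9% and 6.77% of all T12h peaks. Of the distal T12h-only peaks outside dense windows the 3 chromosomes held 5.93%, 8.25% and 3.61%.

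The densest window ran from 47 to 48 Mb of chromosome 6 and held 15 distal T12h-only peaks among 23 T12h peaks, with 4 T48h peaks. An array of 17 T12h peaks spans 124 kb there, 12 of them distal T12h-only, and 2 T48h peaks lie in it. In 9 places neighbours were less than 100 bp apart. Of the 12, 7 were at least 3500 bp wide, between 3962 and 5462 bp, with 806 to 1067 tags each. Their folds were alike: those of all 12 lay between 3.24 and 4.68. The annotation lists 10 genes that touch the region from 47.65 to 47.78 Mb, which holds the array. Among them are Rn4.5s (a small RNA gene, given as rRNA) and predicted models such as Gm40363, Gm40367 and Gm52861. The peak in Gm40363 (chr6:47682343-47686631) held 888 tags with a fold of 3.85 and a score of 328.21. The array held 5 of the 20 highest scores, in Gm40363, Gm40367 and Gm36327 and nearest to Gm52862 and Gm40369.

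**Figure D5:**
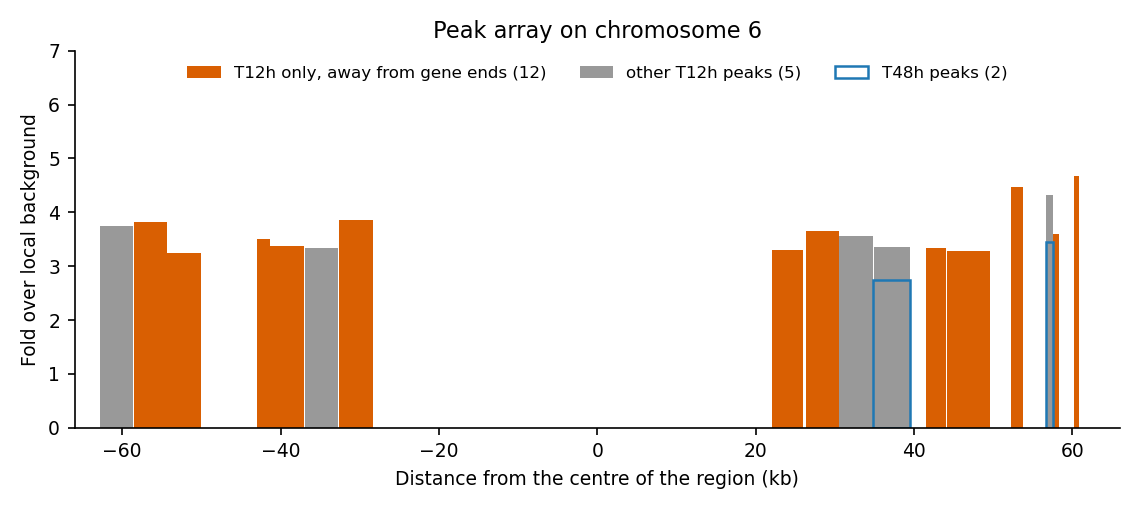
Each bar is 1 peak of the array on chromosome 6, drawn to scale in kb from the centre of the region, and its height is the fold over the local background. The 12 distal T12h-only peaks (orange) have folds of 3.24 to 4.68, and the 2 T48h peaks (blue outline) have 2.74 and 3.45.

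Other dense windows looked different. Nearest to Hrh1, a histamine receptor gene, or Atg7, an autophagy gene, 13 peaks were spread over 137 kb of chromosome 6 (114 to 115 Mb), none of them inside a gene, with folds of 3.32 to 7.38. On chromosome 14, 5 neighbouring windows from 3 to 8 Mb held 30, in and around predicted genes such as Gm3264, Gm2956 and Gm3667. Gm26650, a predicted gene there, held 3 of them, with folds of 8.37, 4.08 and 4.15, and those of 8.37 and 4.08 also lay in Gm3264. On chromosome 8, the window from 20 to 21 Mb held 9, with folds of 2.36 to 3.79 and the widest of the 458, nearest to 2610005L07Rik, with 6421 bp, 1470 tags and a fold of 2.84. The next widest were 5462 bp near Gm52862, 4910 bp near Gm20778, 4455 bp in Gm21119 and 4306 bp in Gm40367, all in dense windows, with folds of 2.36 to 3.29. A peak nearest to Gm36166 on chromosome 8 lay outside the dense windows and had a fold of 5.1 with 491 tags.

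Each distal T12h-only peak was assigned to the genes it lay in or, between genes, to the nearest gene, which gave 455 genes, or 0.910% of the 49993 in the annotation. Of 21896 protein-coding genes 281 had one (1.28%), and of the 2428 of these that span at least 100 kb 105 did (4.32%). No list was tested against these shares. Among the eye field genes, the homeobox gene Meis1 had one 7533 bp away (chr11:19027085-19027502, 39 tags, fold 9.71). Of 21 pluripotency genes Lin28a, an RNA-binding regulator, had a peak at 6649 bp (26 tags, fold 6.18). Of 59 genes of the WNT, FGF, BMP and NOTCH pathways the receptor gene Fzd7 had one, 1793 bp downstream of its start (32 tags, fold 6.34).

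Of 32 Polycomb genes 3 had a distal T12h-only peak, beside 281 of 21896 protein-coding genes (1.28%). Any T12h peak was assigned to 7 of the 32 and a T48h peak to 1. Over the 21896 protein-coding genes these counts were 880 and 390, and no difference between the times was tested. The 3 Polycomb genes are named next. They were Mga (51 tags, fold 7.03), Auts2 (20 tags, fold 9.14) and Ezh2, the histone methyltransferase of PRC2 (19 tags, fold 8.93). The Ezh2 peak lay 933 bp from a T48h peak, in the dense window of chromosome 6. Of 49 long synapse and adhesion genes 6 had one (12.2%), beside 105 of 2428 protein-coding genes of at least 100 kb (4.32%). Any T12h peak was assigned to 6 of the 49 and a T48h peak to 4, beside 164 and 82 of the 2428. This list was chosen for long spans, with a median of 1125 kb against 172 kb for all protein-coding genes of at least 100 kb, and no share for genes of like length is given. The 6 were Grik2, Cntnap2, Ctnna3 (fold 8.93), Ptprt (6.51), Nlgn1 (6.03) and Auts2, and those of Cntnap2 and Nlgn1 were at internal starts. No gene had one among 24 genes of WDR5 complexes, 27 neural progenitor genes, 26 mesoderm and endoderm genes and 25 p53 pathway genes. Any T12h peak was found at 1, 2, 3 and 0 of their genes.

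At the limits of the rule stood the distal T12h-only peaks nearest to a gene end. These lay 1011 bp from Gm9495 (fold 4.33), 1013 bp from the tRNA gene n-TEctc7 (5.51) and 1026 bp from the nearer end of Tardbp (7). Tardbp encodes the RNA-binding protein TDP-43, and the summit there was 938 bp downstream of the Tardbp start. Just outside were T12h-only peaks at 998 bp from n-TEctc8 (3.81) and at 986 bp from Chchd6 (7.14) and from Gm6249 (8.18). The closest T48h peaks lay 15, 37 and 398 bp from a distal T12h-only peak, in the chromosome 6 array, at LOC108168645 on chromosome Y and near Gm32594. In all, 5 of the 458 had a T48h peak within 1 kb and 21 within 10 kb, and the median distance was 1.28 Mb. Among distal T12h peaks counted as shared, the smallest overlap was 94 bp, in Zfp428. The lowest scores were 50.03 in Gm6410 and 50.06 near Oprk1 and near Scp2-ps1.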

How the data were processed

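HA-hWDR5 peaks were called by the authors with MACS 1.4.2 on 1 ChIP library against 1 control library per rescue time, with a p cutoff of 1e-05, per the file headers. The submitters' processing notes also list mm10 as the build, with deepTools, HOMER 4.9.1, Bowtie2 and SAMtools 1.5. The deposited tag count is a whole number of tags per peak, not normalised. The deposited score is a multiple of the negative log10 of the p-value, and the deposited fold is a ratio of tags to local background. False discovery rates were deposited in percent. All are the authors' own values, and none was recomputed.

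Overlap (at least 1 bp) and distance to gene ends were computed with Python 3.11.15, numpy 2.4.6, pandas 2.3.3 and scipy 1.17.1, and drawn with matplotlib 3.10.9. Gene spans (49993 genes) and promoter windows came from RefSeq on GRCm38.p6, and the script was checked on simulated peaks. Peak sequences beyond these windows were not analysed here, so the planned summit windows were replaced by promoter windows. The peaks, gene lists and motifs were chosen with earlier results of these data known. The text names the 20 highest-scoring peaks or the strongest of them, those of highest fold or greatest width, list genes (1 result of the eye field list is not reported here), genes with 3 or more peaks, the densest windows and the peaks at the limits of the rule. Genes at internal starts were named after their values were seen. No tests were made. Alternatives covered distance, overlap, score, false discovery rate, genes and chromosomes.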

Additional observations from a re-analysis of the deposited data

How the results depend on the processing

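The count of distal T12h-only peaks and their shares depend on the distance, score and false discovery limits more than on the overlap. With a distance of 5 kb, 286 peaks remained, 45.8% of them inside genes and 4.64% at an internal start. A distance of 500 bp put 22.1% at an internal start. With a score of at least 100 there were 81 peaks, with a median fold of 8.18, 61.7% inside genes, 22.2% in dense windows and 21.5% at an internal start. With a deposited false discovery rate of at most 5% there were 239, with 61.9% inside genes and 15.9% at an internal start. Windows of 500 kb put 10.0% in dense windows. Taking 500 or 250 bp as the limit for an internal start gave 8.58% and 5.87%, against 0.855% and 0.570% of distal T48h-only peaks. All alternatives for internal starts were chosen after the data were seen. For these changes fewer or more peaks qualified by construction, and any other cause was not tested. The other 32 values, those without chromosome 8, without dense windows, with protein-coding gene ends alone and with other overlap limits among them, stayed within 1.5 times the count or within the interval of the main value. The planned summit windows of 200 and 300 bp were not run. No paired analysis was possible because there was a single ChIP library at either rescue time. Of the 458 peaks, 214 scored under 60, close to the calling limit of 50, and the absence of a T48h peak does not show absence of binding at T48h.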

Other observations

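Some genes outside the dense windows held several distal T12h-only peaks. The pseudogene Gm3489 on chromosome 1 held 3 within 738 bp, with 17, 21 and 25 tags and folds of 5.95, 8.18 and 6.29. These nearly adjoin, at 44825420-44825607, 44825610-44825833 and 44825864-44826157, so they need not be separate sites. Ccdc177 on chromosome 12 held 2, with 36 and 30 tags and folds of 7.02 and 10.37. The potassium channel gene Kcnk3 on chromosome 5 also held 2, with 17 and 18 tags and folds of 7.14 and 8.03. In Fstl5 on chromosome 3, which encodes a follistatin-like protein, 2 peaks of fold 9.82 with 15 and 13 tags lay farther apart, at 76311746 and 76520546. Genes with 2 peaks were named after their values were seen.

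Chromosome Y held 6 of the 458 distal T12h-only peaks and 19 of the 363 distal T48h-only peaks, and chromosome X held 11 and 21. Chromosome 1 held 36 and 22. For Y, X and 1 these are 1.31%, 2.40% and 7.86% of the distal T12h-only peaks. The shares of all T12h peaks were 0.585%, 1.84% and 5.93%. On chromosome Y, 4 of the 6 lay within 68.7 kb. These numbers were not tested.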
